A study of Schizosaccharomyces pombe with 3 samples.

Results

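The ribosomal protein genes of fission yeast, Schizosaccharomyces pombe, were examined for occupancy by the corepressor subunit Tup11. Their features were taken from the scanner tables of 3 arrays as every spot whose name, after removal of the marks for intergenic features, started with rpl, rps or rpp and a digit. This gave 280 of the 10240 features printed on each array, 144 intergenic and 136 in open reading frames (ORFs), for 140 gene names. Each feature was spotted 2 times, which makes 560 of 22176 spots. The rule took in large-subunit genes (rpl), small-subunit genes (rps) and the stalk genes rpp0, rpp101 to rpp103 and rpp201 to rpp203, which are counted here with the large subunit. A reference gene was found for 133 of the 140 names. The other 7 (rpl13a-1, rpl13a-2, rpl24-3, rpl7-3, rpl7a, rpl20-1-x2 and rpl27a) keep the name in the files and have no coordinates here.

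All cells carried Tup11 fused to green fluorescent protein (GFP) and grew in rich YES medium to mid-log phase, and chromatin was precipitated with a polyclonal antibody against GFP. Precipitated and input DNA of separate experiments were amplified, marked with Cy5 (precipitate) and Cy3 (input) and put on the same array, which gave a single group of 3 arrays. Replicates 1 and 2 are on slides labelled E120D and replicate 3 is on a slide labelled F060D. No array of an untagged strain, of another medium or of another mutant was analysed here, so each value is precipitate against input within 1 strain, and the antibody's background was not measured.

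Ribosomal proteins assemble with ribosomal RNA into the large and the small subunit of the ribosome, and their genes are among the most actively transcribed of a growing yeast cell. Many fission yeast ribosomal proteins are encoded by a pair or more of paralogous genes. Their promoters typically lack a TATA box and carry the HomolD box, a core promoter element at which transcription is set up, often with a HomolE box next to it. Tup11 belongs to the Tup1 family of corepressors, which do not bind DNA themselves and are brought to promoters by sequence-specific factors.

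Values below are log2 of precipitate over input, with the median of all features of the array set to 0, so a value of 0 is the middle of the array. An upstream feature is the intergenic feature named for a gene and placed here in the gap before its start codon. This placement follows the name, as the ends of the spotted products are not known here. The scanner tables do not tie their channels A and B to the dyes, and with B over A replicate 3 correlated at r = -0.54 with replicate 1 and at -0.38 with replicate 2, while replicates 1 and 2 correlated at 0.72. Among the ribosomal protein features these values were -0.46, -0.32 and 0.75. Arrays with such correlations have no settled direction. The precipitate was taken as channel B on replicates 1 and 2 and as channel A on replicate 3, as the likely direction, and values with replicate 3 read by the same letters as the others are given beside the results ("same letters"). A value of replicate 3 alone takes the opposite sign with the same letters, and an order read from replicate 3 alone turns round.

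The upstream stretches of 9 genes are shown because the highest and lowest upstream features, and the paralogues that differ most, belong to them. They run 5′ to 3′ on the strand of the gene and end 1 base before the annotated transcript start in the reference build ASM294v3, and are cut short where another transcript begins. Capitals mark the 7-letter HomolD core CAGTCAC or the HomolE core CCCTACC, on either strand. The coordinates are chrII:413407-413526 (plus) for rpl2501, chrII:2690701-2690820 (plus) for rpl2502, chrII:2081361-2081480 (plus) for rpl1001, chrII:1651834-1651919 (minus) for rps402 and chrI:3399121-3399240 (plus) for rps403. They are chrI:2853932-2854051 (minus) for rpl4102, chrII:2180783-2180902 (plus) for rps2402, chrI:3598974-3599093 (plus) for rps2401 and chrI:1711083-1711184 (minus) for rps1602. The stretch of rps1602 is the whole space between its transcript and that of rpl13, so both genes share its single HomolD core. The sequences are from RefSeq, and the ends of the spotted PCR products are not known here, so a feature need not hold the whole stretch.
rpl2501: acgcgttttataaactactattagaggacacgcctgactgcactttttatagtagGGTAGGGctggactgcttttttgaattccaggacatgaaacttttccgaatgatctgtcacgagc
rpl2502: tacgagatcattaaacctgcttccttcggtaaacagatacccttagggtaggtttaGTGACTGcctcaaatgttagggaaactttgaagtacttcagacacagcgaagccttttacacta
rpl1001: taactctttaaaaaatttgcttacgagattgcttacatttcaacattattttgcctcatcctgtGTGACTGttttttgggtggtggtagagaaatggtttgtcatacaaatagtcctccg
rps402: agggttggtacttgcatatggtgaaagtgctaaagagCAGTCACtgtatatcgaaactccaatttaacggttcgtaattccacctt
rps403: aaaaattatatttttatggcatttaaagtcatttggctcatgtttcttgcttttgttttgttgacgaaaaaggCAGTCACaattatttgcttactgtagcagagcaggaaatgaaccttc
rpl4102: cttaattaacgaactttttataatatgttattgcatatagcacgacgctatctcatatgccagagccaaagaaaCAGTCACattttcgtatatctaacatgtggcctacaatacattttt
rps2402: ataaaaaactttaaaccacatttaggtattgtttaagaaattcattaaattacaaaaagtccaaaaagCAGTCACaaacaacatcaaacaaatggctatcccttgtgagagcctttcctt
rps2401: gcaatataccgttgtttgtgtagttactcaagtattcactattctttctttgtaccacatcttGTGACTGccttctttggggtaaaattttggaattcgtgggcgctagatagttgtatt
rps1602: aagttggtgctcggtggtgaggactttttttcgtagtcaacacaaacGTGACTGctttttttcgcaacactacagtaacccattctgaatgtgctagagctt

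The HomolD core was present in the 250 bases before the transcript start of 122 of 133 ribosomal protein genes (91.7%), against 231 of all 5144 promoters (4.49%). The HomolE core was present in 48 of the 133 (36.1%), against 104 of the 5144 (2.02%), and 40 (30.1%), against 50 (0.972%), held both. HomolD matches started at positions between -148 and -16 relative to the transcript start, with a median of -52.5, and HomolE matches between -94 and -58, with a median of -69.5. Of the 11 ribosomal protein promoters without the HomolD core, 8 held the HomolE core, among them that of rpl2501, and 3 (rps902, rpl2402 and rpl3601) held neither. A match is a description of these letters and not a measured binding site.

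Leaving out 6 intergenic features whose names carry the word Missing (those of rpl1101, rpl402, rpp201, rps1801, rps2801 and rps601), 138 upstream features remained. Of these, 113 gave a ratio on replicate 1, 61 on replicate 2 and 138 on replicate 3, and 59 did so on all 3 arrays. Of the 136 ORF features, 107, 72 and 134 were measured, and 71 on all 3 arrays. In the input channel of replicate 2, 59.1% of the 548 spots of these features were rejected, against 24.3% on replicate 1 and 0.912% on replicate 3. All 3 arrays measured 42.8% of ribosomal protein upstream features, against 31.2% of all upstream features, and 52.2% of ribosomal protein ORFs, against 54.2% of all ORFs. The ORF features of rpl1201 and rps102 gave no ratio on any array.

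As a group, ribosomal protein features measured on all 3 arrays lay close to the other such features of their kind. The 59 upstream features measured on all arrays had medians of 0.05, 0.52 and 0.34 on replicates 1 to 3, against 0.16, 0.47 and 0.29 for all 1548 upstream features. The median of their means over the 3 arrays was 0.31, against 0.32. Ribosomal protein ORFs had medians of -0.96, -0.29 and 0.03, against -0.77, -0.30 and -0.12 for all 2737 ORFs, and the medians of the means were -0.41 and -0.39. Which of the groups was higher changed from array to array, in upstream features as in ORFs. With the same letters the upstream medians were 0.10 and 0.07 and the ORF medians -0.46 and -0.33. The SD of the means was 0.57 over ribosomal protein upstream features and 0.77 over all, and it was 0.44 over ribosomal protein ORFs and 0.60 over all. Over every feature measured on an array, the upstream medians were 0.45, 0.52 and 0.28, against 0.49, 0.49 and 0.15 for all. In ORFs they were -0.58, -0.28 and 0.03, against -0.48, -0.28 and -0.12. On replicate 1 these exceed the medians of features measured on all arrays, for members as for all.

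**Figure D1:**
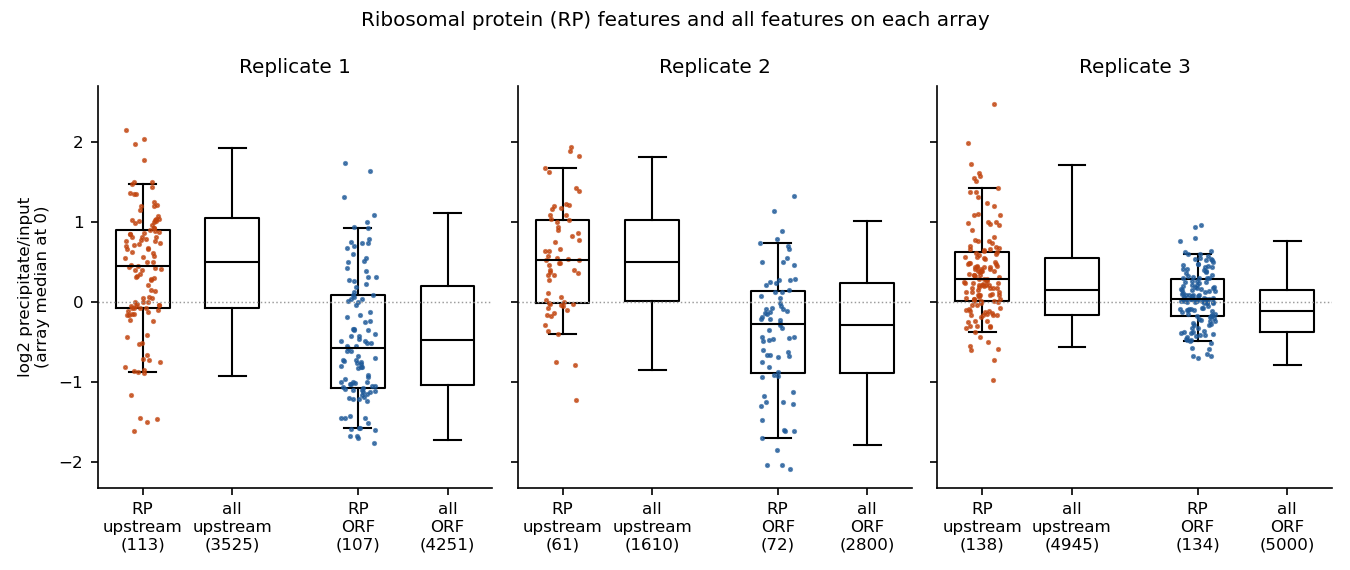
Log2 of precipitate over input (array median at 0) on each array for ribosomal protein (RP) features, as points over a box, beside all features of the same kind; boxes show quartiles, whiskers the 5th to 95th percentile, and the numbers of features stand under each box. The RP boxes overlap those of all features on every array, with upstream medians of 0.45, 0.52 and 0.28 over every RP feature measured on that array, against 0.49, 0.49 and 0.15.

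In single features, 6 of the 59 ribosomal protein upstream features were above the array median and 1 was below it by limma with Benjamini-Hochberg adjustment over all 4285 features, at an adjusted p under 0.05. The share above was 10.2%, against 21.6% of all upstream features, and the share below was 1.69%, against 1.87%. Of the 71 ribosomal protein ORFs none passed above and 7 (9.86%) passed below, against 2.27% and 15.4% of all ORFs. At an unadjusted p under 0.05 in limma, 15 upstream features were above (25.4%, against 30.9% of all upstream features) and 3 below (5.08%, against 4.59%), and 0 ORFs were above (against 3.62% of all ORFs) and 20 below (28.2%, against 28.0%). limma gave every feature the same standard error of 0.36, so its p follows the mean, and the SD shows a feature's own spread. With the same letters no feature passed in limma, and at an unadjusted p under 0.05 none of the upstream features and 2 ORFs, both below, did (2.82%, against 4.71% of all ORFs).

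The highest upstream feature was that of rpl2501 (rpl25a in the files), which encodes uL23, a large-subunit protein at the exit of the peptide tunnel. It had 1.77, 1.82 and 1.72 on replicates 1 to 3 in a gap of 921 bp (chromosome II, 412635 to 413555). All 3 arrays were nearly the same, with a mean of 1.77 ± 0.05 (SD, n = 3; limma adjusted p = 2.61e-05), and 0.62 with the same letters. It shares its gap with cys2, whose feature had 2.00 on replicate 1 and 1.42 on replicate 3.

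The upstream feature of rps1701, which encodes the small-subunit protein eS17, had 1.47, 1.67 and 1.50, again high on every array. Its mean was 1.55 ± 0.10 (SD, n = 3; limma adjusted p = 0.000338) and 0.55 with the same letters. This gap is 3793 bp long (chromosome II, 604378 to 608170) and is shared with cta3, a cation-transporting ATPase gene, whose own feature had 2.69, 2.03 and 3.03 with a mean of 2.58 ± 0.51. A second, long intergenic feature named for rps1701 had 1.50 on replicate 1 and 0.73 on replicate 3. All 3 features of the gap were above the array median wherever they were measured, and how far each lies from either gene is not known here.

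The feature upstream of rpl13a-1, a large-subunit gene name without a reference match, had 1.00, 1.89 and 1.20, with a mean of 1.36 ± 0.46 (limma adjusted p = 0.00207). That of rpl1001, for uL16 (L10), which in budding yeast joins the large subunit late, had 0.85, 1.39 and 1.31 (chromosome II, 2080399 to 2081513). Its mean was 1.18 ± 0.29 (SD, n = 3; limma adjusted p = 0.00881), and its neighbour sim4 had 0.80 and 0.54 on replicates 1 and 3. The upstream feature of rps402, for the small-subunit protein eS4, had 0.92, 0.86 and 1.61 in a gap of 232 bp shared with kgd4 (chromosome II, 1651811 to 1652042). Its mean was 1.13 ± 0.41 (SD, n = 3; limma adjusted p = 0.013). All of these values were positive, and with the same letters the means were 0.56 for rpl13a-1, 0.31 for rpl1001 and 0.06 for rps402.

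The remaining feature past the test, upstream of rpl4102, was not alike on the 3 arrays. This gene encodes eL41, a very short protein at the interface of the subunits, and its feature had 1.20, -0.37 and 1.98 (chromosome I, 2853920 to 2855321). Its mean of 0.94 ± 1.19 passed narrowly (SD, n = 3; limma adjusted p = 0.0457), and with the same letters it was -0.38. Without replicate 1 only rpl2501 came near the threshold, at an adjusted p of 0.081 in limma, and none of the 6 passed. Without replicate 2 rpl2501, rps1701 and rpl4102 passed, and without replicate 3, which leaves the E120D slides, rpl2501, rps1701, rpl13a-1 and rpl1001 did.

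The next features did not pass but were positive on every array. They belong to rpl302 (uL3, near the peptidyl transferase centre) at 0.87 ± 0.32, rps3001 (eS30) at 0.86 ± 0.23, rps1202 (eS12) at 0.84 ± 0.29 and rps2402 (eS24) at 0.81 ± 0.18 (SD, n = 3 each). Those of rpl3703 (eL37) and rps602 (eS6, the phosphorylated small-subunit protein) followed at 0.80 ± 0.27 and 0.78 ± 0.77. Over all 59, 25 were positive on every array and 7 negative on every array, against 678 and 182 of the 1548 upstream features. The same letters gave 5 and 7, against 126 and 139.

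**Figure D2:**
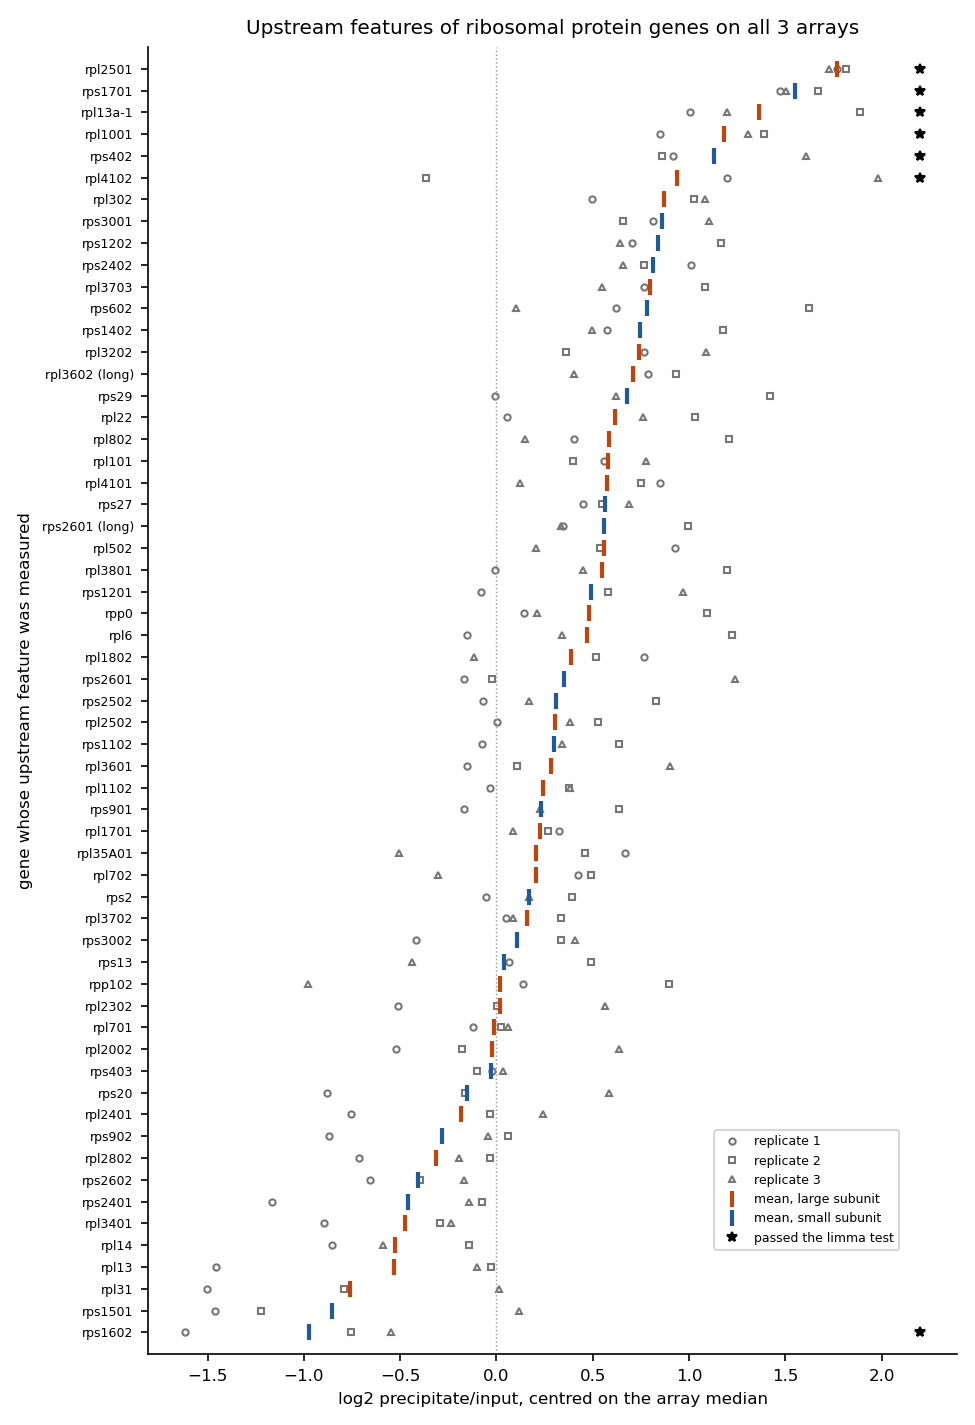
Upstream features of ribosomal protein genes measured on all 3 arrays, ordered by mean; open symbols are the arrays, bars the means coloured by subunit, and stars mark features past the limma test. Large-subunit and small-subunit genes are mixed along the whole range, which runs from 1.77 for rpl2501 to -0.97 for rps1602.

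The single upstream feature below the array median was that of rps1602, for uS9, a small-subunit protein that reaches the transfer RNA in the ribosome. It had -1.62, -0.75 and -0.55, negative on every array, with a mean of -0.97 ± 0.57 (SD, n = 3; limma adjusted p = 0.0368). The call did not hold in limma without replicate 1 or without replicate 2. The feature lies in the gap of 146 bp shared with rpl13 (chromosome I, 1711068 to 1711213), and the feature named for rpl13 had -1.46, -0.03 and -0.10 with a mean of -0.53 ± 0.80. The upstream feature of rps1501 (uS19) had -1.46, -1.22 and 0.12, and that of rpl31 (eL31) had -1.50, -0.79 and 0.01. These were low on replicates 1 and 2 and near the middle on replicate 3, with means of -0.86 ± 0.85 and -0.76 ± 0.76. The features of rpl14 at -0.53 ± 0.36 and rpl3401 at -0.48 ± 0.36 completed the 6 lowest, and neither passed. The gaps of rps1602, rps1501, rpl31, rpl14 and rpl3401 are 146, 312, 296, 213 and 409 bp long.

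Apart from the gap of rpl13 and rps1602, other divergent pairs of ribosomal protein genes share a gap. In the gap of 168 bp between rpl701 and rps1402 (chromosome II, 1792216 to 1792383) the rpl701 feature had -0.12, 0.03 and 0.06 and the rps1402 feature 0.57, 1.18 and 0.49. The rps1402 feature was the higher on every array, although both were placed in the same short gap. In the gap of 569 bp between rps2 and rps20 (chromosome III, 2095989 to 2096557) the means were 0.17 ± 0.22 and -0.15 ± 0.73. The gap of 222 bp between rpl35 and rpl902 gave -0.44 and 0.13 for rpl35 and -0.13 and 0.03 for rpl902 on replicates 1 and 3. On replicate 3, where alone it was measured, the gap of 184 bp between rps1502 and rpp203 gave 0.49 and -0.61 for its features. Over all divergent gaps with a feature for each gene the values correlated at a Spearman rho of 0.51 on replicate 3 (1037 gaps), as a description. For features of adjacent convergent genes the rho was 0.12 (1169 pairs).

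In ORFs, 7 features were below the array median, and 6 of them are described here. They belonged to rpl2801 (uL15), rps401 (eS4), rpl502 (uL18, which binds the smallest ribosomal RNA), rpl2001 (eL20), rps3001 (eS30) and rps502, which was named after its value was seen. The ORF of rpl2801 had -1.70, -1.70 and -0.23 (mean -1.21 ± 0.85, limma adjusted p = 0.00728), and that of rps401 had -1.51, -2.03 and -0.01 (mean -1.18 ± 1.05, limma adjusted p = 0.00878). All 7 were well below the median on replicates 1 and 2 and between -0.39 and -0.01 on replicate 3. The ORFs of rpl502, rpl2001, rps3001 and rps502 had means between -1.05 and -0.96. None of the 7 passed in limma without replicate 1 or without replicate 2, and each passed without replicate 3. These calls thus rest on the E120D slides, where the median signal lay near that of Empty spots. With the same letters the means of the 7 were between -1.18 and -0.70.

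The highest ribosomal protein ORF was again rpl2501, at 1.00, 1.32 and -0.27, with a mean of 0.68 ± 0.84 (limma adjusted p = 0.165). It was high on the E120D slides and not on replicate 3. The ORF of rps601, for eS6, was steadier at 0.73, 0.78 and 0.46 (mean 0.66 ± 0.17, limma adjusted p = 0.183). Those of rpl1701, rpl402, rps2202 and rpl3001 had means of 0.44, 0.40, 0.35 and 0.32. Of the 71 ORFs, 4 were positive on every array and 19 negative on every array, against 221 and 1079 of all 2737. Read by the same letters they were 2 and 28, against 170 and 586. Ribosomal protein ORF features are shorter (median coding extent 525 bp, against 1249.5 bp) and richer in GC (median 46.1%, against 38.9%) than all ORF features. In upstream features the median GC was 32.1%, against 31.2%.

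Within genes, the upstream feature mostly exceeded the ORF. Both were measured on all arrays for 28 ribosomal protein genes, and the upstream feature was the higher by the mean in 26 of them, against 648 of all 779 genes (83.2%). The median of upstream minus ORF was 0.99, 0.99 and 0.21 on replicates 1 to 3 in ribosomal protein genes, against 0.96, 0.80 and 0.45 in all genes. The difference was thus smallest on replicate 3, and there 92 of 127 ribosomal protein genes (72.4%) and 3214 of 4479 genes (71.8%) had the higher value upstream in the likely direction. In limma, 8 of the 28 passed, all with the upstream feature higher, against 30.2% of all genes higher and 1.03% lower. With the same letters the median was 0.65 in ribosomal protein genes and 0.41 in all genes.

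The largest differences were those of rps3001, at 2.50, 1.91 and 1.26 (mean 1.89 ± 0.62, limma adjusted p = 0.00469), and rps402, at 0.64, 2.90 and 1.62 (mean 1.72 ± 1.13, limma adjusted p = 0.0121). They were followed by rpl502 at 1.61 ± 1.15, rps1402 at 1.51 ± 0.31 and rpl13a-1 at 1.50 ± 0.27. The difference was positive on every array in each of these 5 genes. The other genes that passed, named after their values were seen, were rpl802, rpl1001 and rps1202. The order depended on the direction of replicate 3: with the same letters the differences were 1.05 in rps3001, 0.64 in rps402, 1.42 in rpl502, 0.73 in rps1402, 0.69 in rpl13a-1 and 1.40 in rpl802. At the other end, rps1602 had -0.42, -0.80 and -0.58, with a mean of -0.60 ± 0.19 (limma adjusted p = 0.255), and was the gene whose ORF exceeded its upstream feature on every array. The differences of rpl1701 and rpl2802 were -0.22 ± 0.24 and 0.02 ± 0.04. In rpl2501, with the highest values of both kinds, the difference was 1.09 ± 0.80 and did not pass, and with the same letters it turned to -0.24.

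**Figure D3:**
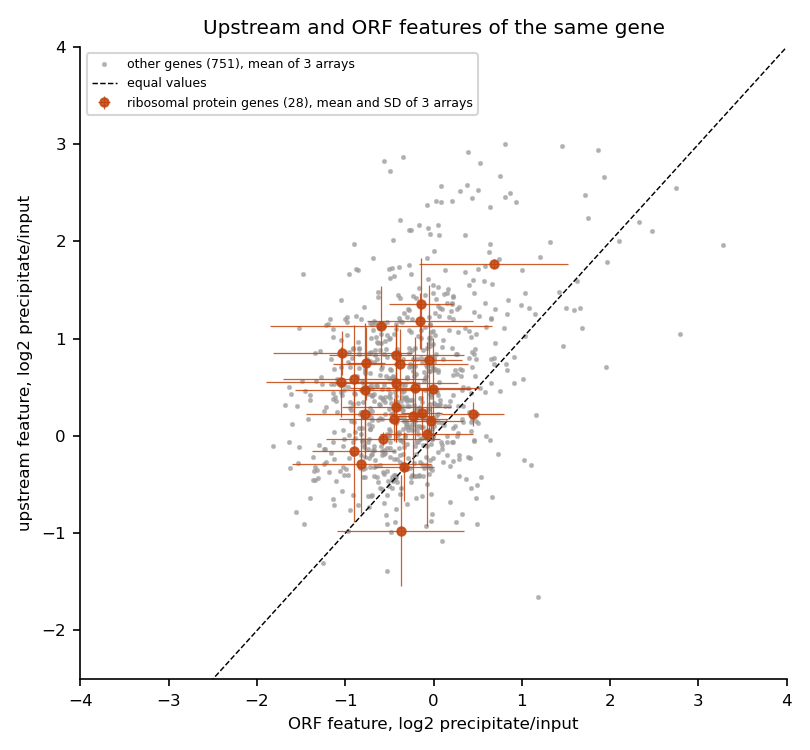
Upstream feature (vertical) against ORF feature (horizontal) of the same gene, as the mean log2 ratio of 3 arrays, with SD bars for 28 ribosomal protein genes over the other genes in grey; the dashed line marks equal values. All but rps1602 and rpl1701 of the ribosomal protein genes lie above the line, within the cloud of the other genes.

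Large-subunit and small-subunit genes were set side by side without a test of the difference. The 34 large-subunit upstream features on all arrays had medians of 0.14, 0.48 and 0.29 on replicates 1 to 3, against -0.05, 0.58 and 0.34 for the 25 of the small subunit, and the medians of the means were 0.35 and 0.31. The large subunit was the higher on replicate 1 alone. Of the features above in limma 4 were of the large and 2 of the small subunit (11.8% and 8.0%, against 21.6% of all upstream features). The large-subunit ORFs had medians of -0.77, -0.14 and 0.03, against -1.05, -0.63 and 0.03 for the small subunit. Below in limma were 3 of 42 (7.14%) and 4 of 29 (13.8%), against 15.4% of all ORFs. The ORF medians thus differed on replicates 1 and 2 and not on replicate 3.

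Of the stalk genes, whose products form the flexible arm that recruits elongation factors, few were measured on all arrays. The upstream feature of rpp0, the protein that anchors the arm, had 0.15, 1.09 and 0.21, and its ORF had -0.35, -0.14 and 0.47. The upstream feature of rpp102, in a gap of 97 bp, had 0.14, 0.90 and -0.98 and did not keep its sign. The ORF of rpp202 had -0.49, 0.73 and 0.64, and its upstream features were positive wherever measured, with 0.67 and 0.59 for the shorter one and 1.02 and 0.54 for the long one on replicates 1 and 3. On replicate 3 alone, the ORF of rpp201 had 0.79, the highest percentile (95.4) of the ORFs measured there alone, and that of rpp203 had -0.67. The stalk genes rpp101 and rpp103 had -0.01 and -0.15 upstream and 0.08 and -0.11 in the ORF on replicate 3.

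Paralogues were compared because they encode nearly the same protein from separate loci. The members form 67 pairs in 55 families, with a median identity of the coding sequences of 87.8% (68.6% to 99.6%). Cross-hybridisation between the ORF features of paralogues was not tested. The median absolute difference between paralogues was 0.70 over the 10 pairs with both upstream features on all arrays, against 0.55 between any 2 ribosomal protein upstream features. In ORFs it was 0.22 over 21 pairs, against 0.43 between any 2 ribosomal protein ORFs. The medians over pairs were 0.40 upstream and 0.33 in ORFs with the same letters. On replicate 3 it was 0.42 over 60 upstream pairs, against 0.49, and 0.26 over 62 ORF pairs, against 0.34. Values of paralogues on replicate 3 correlated at a Spearman rho of 0.11 upstream and 0.21 in ORFs, over pairs that share an array.

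In 7 of the 10 upstream pairs the same paralogue was higher on every array in the likely direction, and in 2 of the 10 with the same letters. The largest difference in the likely direction was rpl2501 minus rpl2502, at 1.77, 1.29 and 1.34 (mean 1.47 ± 0.26, SD, n = 3), and the stretch of rpl2502 printed above holds the HomolD core, while that of rpl2501 holds the HomolE core. The next was rps2401 minus rps2402, at -2.17, -0.84 and -0.80 (mean -1.27 ± 0.78), both with the HomolD core. For rps402 minus rps403 it was 0.94, 0.96 and 1.57 (mean 1.16 ± 0.36). In these 3 pairs each array gave the same sign, which does not hold with the same letters, where the means were 0.57, -0.74 and 0.11. The largest was then rpl4101 minus rpl4102 at 0.88.

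The pairs of rps2601 and rps2602 at 0.76 ± 0.57, of rps3001 and rps3002 at 0.75 ± 0.46 and of rpl3702 and rpl3703 at -0.64 ± 0.16 also kept their sign in the likely direction, each as the one named first minus the other. Among the 4 smallest differences, rps901 minus rps902 kept it at 0.52 ± 0.22. The pairs of rpl4101 and rpl4102 (-0.36 ± 1.49), rps1201 and rps1202 (-0.35 ± 0.59) and rpl701 and rpl702 (-0.21 ± 0.50) did not. Those that kept it with the same letters were the pairs of rps1201 and rps1202 (-0.57) and of rpl701 and rpl702 (-0.46). No test was run on single pairs, and an exact sign-flip test on 3 arrays cannot give a 2-sided p below 0.25. In ORFs 4 of 21 pairs kept their sign, and 10 with the same letters, the largest of all being rpl2801 minus rpl2802 at -0.88 ± 0.78 and rps601 minus rps602 at 0.70 ± 0.42.

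**Figure D4:**
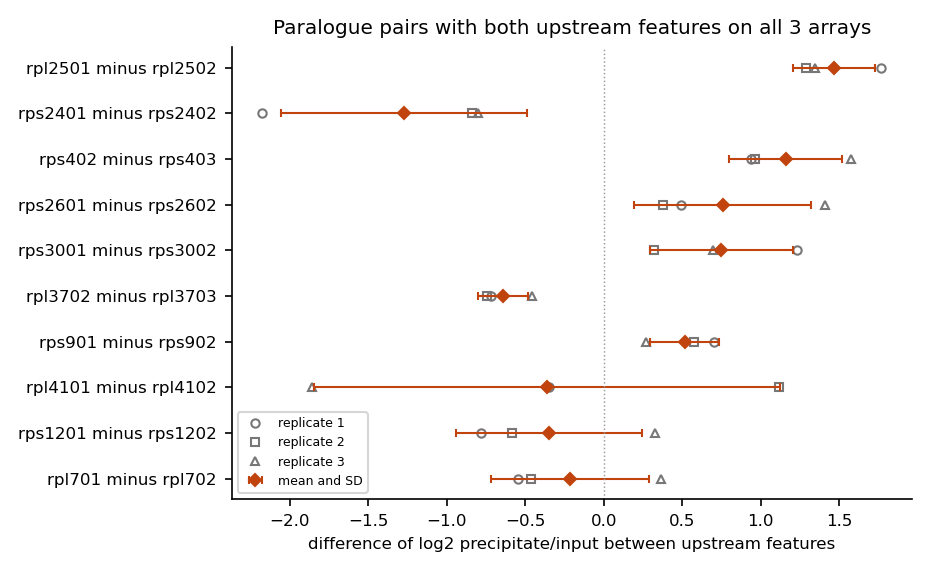
Difference of the log2 ratio between upstream features of paralogues on each array (open symbols) with mean and SD (n = 3), for the 10 pairs measured on all arrays, ordered by absolute mean. With replicate 3 in its likely direction, the top 7 pairs lie on 1 side of 0 on every array, and the 3 others cross it.

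In the likely direction, upstream values were higher in longer gaps in ribosomal protein genes as in all genes. Over upstream features on all arrays the Spearman rho of the mean with gap length was 0.45 (56 members), against 0.28 over 1322 features, and on replicate 3 it was 0.31 (127 members), against 0.30 over 4550. The rho of the mean with the same letters was 0.032 over the members, against 0.00047 over all, and that of replicate 3 was -0.31, against -0.30. On replicates 1 and 2, which the direction of replicate 3 does not touch, it was 0.25 and 0.23 over the 56 members, against 0.26 and 0.084 over the 1322. These are descriptions across features of the same arrays. In gaps under 400 bp the median of the means was 0.03 over 18 members and 0.02 over all 226. From 400 to under 800 bp it was 0.31 over 22 members and 0.28 over all 342, and from 800 bp up it was 0.56 over 16 members and 0.53 over all 754. Ribosomal protein gaps were the shorter, with a median of 672 bp, against 854 bp. By arrangement, the 36 features in divergent gaps had a median of 0.26 and the 22 in tandem gaps 0.51, against 0.32 and 0.34 over all such features. With the same letters these were 0.06 and 0.11, against 0.06 and 0.09. On replicates 1 to 3 the member medians were 0.03, 0.43 and 0.19 in divergent gaps and 0.02, 0.65 and 0.39 in tandem gaps.

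**Figure D5:**
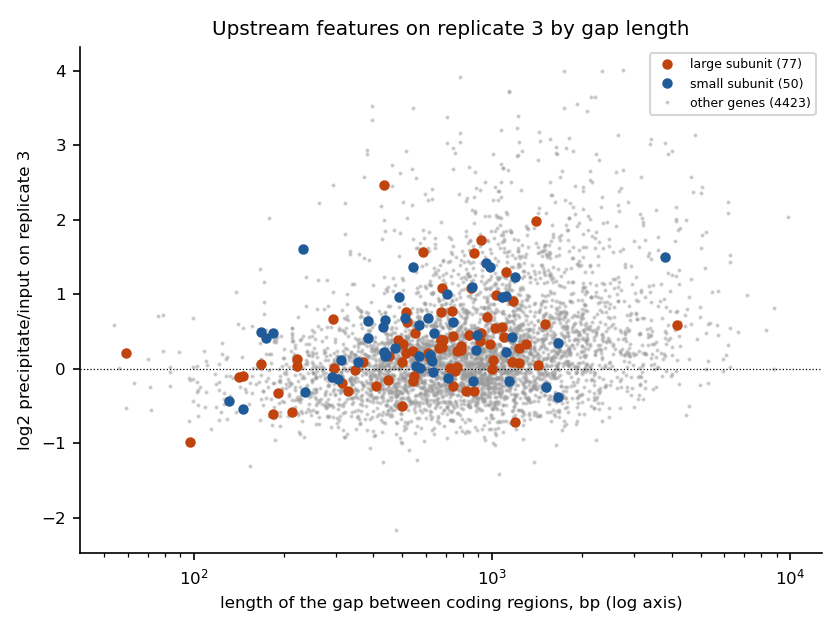
Log2 ratio on replicate 3 against the length of the gap between coding regions (log axis) for upstream features of large-subunit and small-subunit genes over those of other genes (grey). With replicate 3 in its likely direction, the median over gaps under 400 bp is 0.01 in 29 ribosomal protein genes, and from 800 bp up it is 0.45 in 43.

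Upstream values were also set against the promoter cores. The 53 upstream features of genes with the HomolD core had a median of 0.31, with 4 above and 1 below in limma, and the 5 without it had 0.28, with 1 above. Over all upstream features 21.6% were above and 1.87% below. On replicate 3 the medians were 0.25 over 121 features and 0.49 over 12. For the HomolE core the medians were 0.31 over 25 features with it and 0.30 over 33 without, and on replicate 3 they were 0.26 and 0.29.

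By the rank rule that the labels' protocols state, a feature is listed as bound when its median percentile over the arrays reaches the 85th. Of the 59 upstream features 9 (15.3%) reached it, against 23.8% of all upstream features, and of the 71 ORFs none did, against 2.48%. The 9 were those of rpl2501, rps1701, rpl1001, rpl13a-1, rpl4102, rpl22, rpl302, rps1202 and rps29, named because they are on the list. The feature of rps402, although past the limma test, missed the list with a median percentile of 84.1. With the same letters 3 upstream features and no ORF reached it. This count is given without a share over all features, so it does not tell a change in members from one in the whole array.

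A further 54 upstream features and 36 ORFs were measured on replicates 1 and 3 only, and carry no test. Upstream, 36 (66.7%) were positive on both arrays, against 54.6% of 1970 features of that kind, and in ORFs 15 (41.7%), against 25.2% of 1514. Under the same letters 8 of the 54 upstream features were, against 29.1% of all, and 9 of the 36 ORFs, against 29.99%. The members with the highest values, named after their values were seen, included rpl2301 at 1.98 and 2.47 (chromosome I, 3179993 to 3180425), rpl1603 at 2.04 and 1.57, rps801 at 1.34 and 1.37, rpl35A02 (rpl37-1 in the files) at 1.02 and 1.55, and rpl15 at 2.15 and 1.00. The value of rpl2301 was the highest of any ribosomal protein feature on replicate 3. At the low end, rps2501 had -0.81 and -0.31 and rpl42 -0.73 and -0.04.

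On the F060D slide alone, 23 upstream features and 26 ORFs were measured. In 17 of these 23 and 21 of these 26 the precipitate channel of replicate 1 gave a signal while its input was rejected. The upstream values had a median of 0.24 and ran from -0.61 to 1.00, which is between the 4.11th and 87.1th percentile of all upstream features on that slide, and 17 were positive. Under the same letters 6 of the 23 were positive and the order that follows turns round. The median over all 1367 upstream features measured on replicate 3 alone was 0.08. The highest were rps401 at 1.00, rps2302 at 0.68, rpl3602 at 0.61, rps1502 at 0.49, rpl4302 at 0.44 and rps1702 at 0.43. The lowest were rpp203 at -0.61, rps502 at -0.38, rpl1002 at -0.24 and rpl7a at -0.17. Only rps401 of these 23 was past the 85th percentile of all upstream features on that slide.

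The ORFs of the F060D slide alone had a median of 0.01 and ran from -0.70 to 0.79, against a median of -0.15 over all 687 ORFs measured there alone. The highest were those of rpp201 at 0.79, rpl13a-2 at 0.54 and rps1702 at 0.44, and the lowest those of rps101 at -0.70, rpp203 at -0.67 and rpl1802 at -0.58. Of the 26, 14 were positive in the likely direction and 12 with the same letters. With 1 array there is no replicate error for these values.

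Other genes of ribosome production were counted in lists by pathway. Among regulators of ribosomal protein genes, the upstream feature of psk1, a kinase that phosphorylates the small-subunit protein eS6, had 2.87, 1.94 and 3.03 (mean 2.62 ± 0.59, 0.60 with the same letters) and was the single one of 8 that was measured on all arrays. Of 3 measured regulator ORFs 1 was below, that of fhl1, whose budding yeast namesake acts at ribosomal protein promoters, at -1.06 ± 0.70 (limma adjusted p = 0.022). For RNA polymerase I none of 11 upstream features was measured on all arrays, and of 7 ORFs 2 were below, those of its largest subunit nuc1 at -1.06 ± 0.89 and of ker1 at -0.99 ± 0.66.

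For ribosome assembly factors the 8 upstream features had a median of 0.74 (0.072 with the same letters) and none passed in limma. At an unadjusted p under 0.05 in limma 5 of the 8 were above, against 30.9% of all upstream features. Of 28 ORFs 5 were below at an adjusted p under 0.05. For translation initiation factors 2 of 9 upstream features were above, those of tif223 at 1.02 ± 0.41 and of sum1 (tif34 in the files) at 1.72 ± 2.07, and 1 of 21 ORFs was below. The value of sum1 came mostly from replicate 2, with 0.84, 4.08 and 0.24. For mitochondrial ribosomal proteins, which are encoded in the nucleus and work in the mitochondrion, 2 of 9 upstream features were above and 6 of 19 ORFs below. The shares at an adjusted p under 0.05 are to be read against 21.6% of upstream features above and 15.4% of ORFs below over the whole array.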

How the data were processed

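Chromatin of Tup11-GFP cells was hybridised on 3 two-colour spotted arrays. The deposited scanner tables hold spot intensity after background subtraction, quantified with TIGR Spotfinder per the labels' protocols, with rejected spots at 0. The deposited value tables hold log10 values whose content is not settled: they follow the scanner rows only with ORF and intergenic names exchanged. They were used as an alternative alone, with the names so exchanged. For software versions and the genome build, the status is: not given in the sources used here. Names were taken from the scanner tables, where the Ef1-b control spots (-0.56 on replicate 1) matched the ORF ef1-b (-0.57) and not its intergenic feature (3.30).

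Log2 ratios of non-rejected spots were averaged over 2 spots, centred on each array's median and tested against 0 with limma 3.58.1 (R 4.3.3; lmFit, eBayes, Benjamini-Hochberg) over 4285 features on all 3 arrays. Upstream minus ORF was tested likewise over 779 genes. The number of arrays limits the precision. The test was also run on simulated data with independent normal noise of the same SD in every feature. Such data cannot show how it behaves where features differ in spread or the direction of an array is wrong. Features were matched by name to ASM294v3. Gaps lie between coding regions or structural RNA genes, and late-annotated genes named new did not bound them. Promoter windows of 250 bases were cut from the genome and its annotation, since no promoter table was used. Per the labels' protocols the arrays came from separate experiments. The p-values of single features use the spread between these 3 arrays pooled over all features, and not a feature's own spread. In upstream minus ORF a gene's own spread counted only in part.

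Members, gene lists and tests were chosen with earlier results of these data known. Genes were named by rank: on all arrays, the 12 highest and 6 lowest upstream features and the 6 highest and lowest ORFs, every upstream feature below, paralogue pairs by absolute difference (6 largest, 4 smallest), genes by upstream minus ORF (5 largest, 3 lowest), on replicate 3 alone the 6 highest and 4 lowest upstream features and 3 highest and lowest ORFs, shared gaps and stalk genes. A gene that this rule names is not reported here. Alternatives were the letters of replicate 3, each replicate left out, loess, normexp (offset 50), centring on shared features, a filter on dim spots (25th percentile), a variance prior with trend, undetected input at the 1st percentile, GC content and length regressed out, and the value tables. A fit of features on at least 2 arrays was added after seeing the data.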

Additional observations from a re-analysis of the deposited data

How the results depend on the processing

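No pairing between samples was possible because the 3 arrays form a single group, while upstream minus ORF was paired within each array. The median of ribosomal protein upstream features kept its sign without each replicate (0.19 to 0.45), as did that of ORFs (-0.64 to -0.10), while counts of calls depended on the setting. Leaving out each replicate gave 0 to 6 upstream features above (0.0% to 10.2% of members, against 2.58% to 21.9% of all). It gave 0 to 3 below (0.0% to 5.08%, against 0.0% to 4.97%). In ORFs there were 0 to 1 above (0.0% to 1.41%, against 0.183% to 3.0%) and 0 to 20 below (0.0% to 28.2%, against 0.219% to 29.1%). The binding list held 4 to 13 upstream features and 0 to 1 ORFs, and 1 to 12 genes were higher upstream. These list and gene counts are given without a share over all features. The large minus small subunit upstream median was -0.089 to 0.22. The causes were not tested. Rejected input spots limit which members have a value on all arrays.

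The counts below are those that moved by over 1.5 times, of upstream features above and below, ORFs above and below, upstream features and ORFs on the list, and genes higher upstream. List and gene counts are given without a share over all features, so they do not tell a change in members from one in the whole array. Upstream features above also came to 7 with loess (11.9%, against 21.3% of all), 5 with normexp (8.47%, against 18.9%) and 7 with a trended prior (11.9%, against 23.8%). Reading replicate 3 by the same letters, they were 0 above, 0 below and 0 ORFs below (0.0% of all features in each), 3 listed upstream and 0 genes. Loess gave 0 below (against 0.581% of all), 0 ORFs below (against 3.18%), 2 listed ORFs and 5 genes. Normexp gave 0 below (against 0.711% of all), 2 ORFs below (2.82%, against 7.23%), 1 listed ORF and 4 genes. It also gave an upstream median of 0.66, a large minus small subunit upstream median of 0.20 and a median upstream minus ORF of 1.46. Centring on shared features gave 11 above (18.6%, against 26.2% of all), 0 below (against 0.517%) and 2 ORFs below (2.82%, against 7.01%). Without dim spots there were 3 above of 23 (against 23.1% of all), 0 below, 4 ORFs below of 55 (7.27%, against 10.3%), 5 listed upstream, 1 listed ORF and 1 gene, and ribosomal protein minus all upstream medians differed by -0.11. A variance prior with trend gave 0 below and 0 ORFs below (0.0% of all features in both). Undetected input at a low signal gave 0 above of 113 (against 1.92% of all), 0 below (against 0.282%) and 3 ORFs below of 111 (2.70%, against 6.38%). It also gave 14 listed upstream, 7 listed ORFs, 0 genes and a difference from all upstream features of -0.18. With GC content and length removed there were 2 below of 58 (3.45%, against 5.84% of all), 1 ORF above and 3 below of 68 (1.47% and 4.41%, against 3.65% and 10.9%), 6 listed ORFs and 3 genes, with a difference from all of 0.12 and a median upstream minus ORF of 0.25. The deposited values gave 0 above of 94, 0 below, 0 ORFs below of 92 (limma called no feature of the array), 16 listed ORFs and 0 genes, differences from all of 0.19 upstream and 0.16 in ORFs, a large minus small subunit upstream median of -0.12 and a median upstream minus ORF of -0.028. Features on at least 2 arrays, an alternative chosen after seeing the data, gave 10 above of 115 (8.70%, against 15.4% of all), 20 listed upstream, 1 listed ORF, 1 gene and a difference from all of 0.17.

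Of the single features reported as past the test, the upstream feature of rpl4102 turned sign with the same letters (-0.38). In the deposited values the upstream features of rpl13a-1 (-0.14) and rps1602 (0.28) and the ORFs of rpl2001 (1.03), rps401 (1.41) and rpl2801 (0.91) turned. Of the genes past the test in upstream minus ORF, rpl13a-1 (-0.29), rps1402 (-0.061), rps402 (-0.066), rps1202 (-1.36) and rpl802 (-1.30) turned in the deposited values. Results named by rank that had not passed gave a further 18 turns of sign, counted over results and settings and not listed here. Upstream minus ORF of rpl2501, which had not passed and is outside this count, turned to -0.24 with the same letters. Counts of single features above or below given as 0 in limma were between 0 and 12 at an unadjusted p under 0.05. The value tables follow the scanner rows only with names exchanged. Their fit made that exchange, which is not settled, so the ORF and upstream labels of the turns in the deposited values rest on it.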
